A study of Mus musculus with 4 samples.

Results

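Matn1-positive chondrocytes were taken from single-cell libraries of the embryonic mouse hindlimb. They were the barcodes with at least 3 UMIs (unique molecular identifiers, the counting unit) of Matn1, the gene for the cartilage matrix protein matrilin-1. They also had to carry more UMIs of Acan, Col9a1, Col9a2 and Col9a3 together (the sum C) than of Col1a1, Col1a2 and Col3a1 together (the sum F). Under 5 UMIs of Col10a1, under 2 of Ihh and under 3 of Gdf5 were allowed, genes that mark hypertrophic, prehypertrophic and joint-side cells. Of 18955 barcodes in 4 libraries, 3640 had at least 3000 UMIs and at most 10% mitochondrial UMIs, 1710 of these were chondrocyte barcodes by C > F, and 1146 passed every gate. These barcodes were chosen by the measured UMIs of the gate genes, so their levels are given as a description.

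The cells came from E14.5 embryos and were sorted into tdTomato-positive (tdT+, Gli1 lineage) and tdTomato-negative (tdT-) fractions. Library S1 (tdT+) and library S2 (tdT-) belonged to collection 1, and S3 (tdT+) and S4 (tdT-) to collection 2. Pan-Cart-p21MOE embryos carried Col2a1-rtTA, a cartilage-targeted driver that under doxycycline switches on the TigreTRE-p21 allele, an inducible copy of the cell-cycle inhibitor p21. The expression is mosaic, and the study reports p21 in only a part of the E14.5 chondrocytes of this model. Pan-Cart-p21MOE cells here are thus cells of such embryos, with or without p21, which were not separated. Control embryos lacked Col2a1-rtTA. Both genotypes carried TigreTRE-p21, Gli1CreER and R26LSL-tdT, and both received doxycycline from E12.5 (1 mg/ml in the drinking water, and in the food) and tamoxifen at E13.5 (120 µg/g by gavage). The genotypes loaded together in a library were of opposite sex, so genotype was read from Xist and 4 Y-linked genes. In collection 1 the Pan-Cart-p21MOE cells were male, and in collection 2 they were female. The 8 sums of counts compared below (4 per genotype) hold the cells of 2 embryo pools per genotype, each pool giving a tdT+ and a tdT- sum. The methods list 1 embryo for the female Pan-Cart-p21MOE pool and 2 for each of the other pools, so the difference between embryos and that between genotypes can be told apart only in part. The study's results text instead describes several embryos pooled for every sample, and the sources used here do not settle which holds.

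Chondrocytes of a growing long bone form ordered zones. Round resting cells at the bone ends feed columns of flat, dividing proliferative cells, which then leave the cell cycle, switch on Ihh and later Col10a1, and enlarge. Matrilins are adaptor proteins that link collagen fibrils, aggrecan and cartilage oligomeric matrix protein in the matrix between these cells, and Matn1 and Matn3 are widely used as markers of proliferating and maturing chondrocytes. p21, encoded by Cdkn1a, blocks cyclin-dependent kinases and holds cells in G1.

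The promoter windows of Matn1, the gene that chose these barcodes, and of Matn3 and Tnc, the leading genes of the genotype comparison that encode matrix proteins, are shown to place them in the genome. Each window spans 250 bases before to 50 bases after an annotated start in RefSeq (GRCm38.p6, the build of the counts), 5′ to 3′ along the gene's strand. The coordinates are chr4:130944135-130944434 (+) for Matn1, chr12:8947679-8947978 (+) for Matn3 and chr4:64046966-64047265 (-) for Tnc. Capitals mark matches to GGAATG (the core of the TEAD motif, both strands) and to ACAAAG or ACAATG (SOX core, both strands). They also mark TGANTCA (AP-1, both strands) and, on the given strand only, TATAAA (the letters of a TATA box).
Matn1: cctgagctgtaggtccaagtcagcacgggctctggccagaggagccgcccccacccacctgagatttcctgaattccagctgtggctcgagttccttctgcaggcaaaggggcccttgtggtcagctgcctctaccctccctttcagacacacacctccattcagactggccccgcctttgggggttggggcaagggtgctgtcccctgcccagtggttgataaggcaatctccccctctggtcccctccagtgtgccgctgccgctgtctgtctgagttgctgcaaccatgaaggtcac
Matn3: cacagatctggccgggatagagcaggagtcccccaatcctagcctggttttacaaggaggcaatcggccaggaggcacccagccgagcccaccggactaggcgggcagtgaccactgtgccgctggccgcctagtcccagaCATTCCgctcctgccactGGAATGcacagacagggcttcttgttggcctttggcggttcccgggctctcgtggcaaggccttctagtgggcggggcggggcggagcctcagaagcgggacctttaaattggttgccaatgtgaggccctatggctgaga
Tnc: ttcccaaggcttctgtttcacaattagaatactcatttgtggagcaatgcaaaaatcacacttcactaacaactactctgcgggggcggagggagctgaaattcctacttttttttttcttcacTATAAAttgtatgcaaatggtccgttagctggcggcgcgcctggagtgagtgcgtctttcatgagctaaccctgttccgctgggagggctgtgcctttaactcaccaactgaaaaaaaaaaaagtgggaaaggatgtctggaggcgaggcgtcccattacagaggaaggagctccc
The Matn3 window held 2 TEAD letter matches, which begin at bases 142 and 160, that is 109 and 91 bases before the start. At least 1 such match lay in 14.6% of 32544 promoter windows of this length, and 2 or more in 1.36%. The Tnc window held TATAAA, present in 8.28% of windows, 126 bases before its start. A second, overlapping Tnc window (chr4:64046887-64047186) held the same match, 205 bases before its own start. Variants of TATAAA were not searched. The Matn1 window held none of the searched letters. SOX letters occurred in 28.4% and AP-1 letters in 7.79% of all windows. A match is a string of letters and not a measured binding site.

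The libraries held 162 (S1), 248 (S2), 281 (S3) and 455 (S4) Matn1-positive barcodes. Their median depth was 21646.5 UMIs, against 17009 in the 564 other C > F barcodes. Matn1 reached 352 UMIs in a single barcode, with a median of 18. At the edge of the gate, 93 members carried exactly 3 Matn1 UMIs (median depth 9829, summed Matn1 205 CPM, counts of a gene scaled to a fixed total of counts), and 105 barcodes that passed every other gate carried 2 (median depth 6700, 164 CPM). The barcodes just outside the gate were thus the shallower. Of the 564 C > F barcodes outside, 346 had under 3 Matn1 UMIs, and for 324 of them no other gate was missed. The remaining 218 had 3 or more Matn1 UMIs and missed a gate on Ihh, Col10a1 or Gdf5. Among the 1930 barcodes with C at or below F, which are not chondrocytes by this rule, 25.6% still had at least 3 Matn1 UMIs at a median depth of 20488 UMIs, but the summed level was 108 CPM against 1360 CPM in the members. Scrublet placed 57 members in the top 5% of doublet scores, and 88 members carried UMIs of both sexes and were left without a genotype. Between libraries, 10 of the 3640 barcodes shared a sequence, and no member shared one with another member.

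The label of proliferative-zone cells was checked against Matn1, Epyc and C1qtnf3. Epyc, which encodes the small proteoglycan epiphycan, was at 183, 217, 343 and 313 CPM in the members of S1 to S4 and at 265, 398, 331 and 361 CPM in the other C > F barcodes. C1qtnf3, a secreted C1q-like protein of cartilage, was at 79.4, 112, 107 and 133 CPM in the members and at 144, 231, 163 and 205 CPM in the others. C1qtnf3 was thus lower in the members in 4 of 4 libraries and Epyc in 3 of 4, so these markers do not set the members apart from the other chondrocyte barcodes as a whole. The others are a mixture, and they were separated by the gate they missed, where a barcode could miss several. Barcodes that failed only on Matn1 had Epyc at 39.7 ± 13.01 CPM and C1qtnf3 at 19.6 ± 14.04 CPM (mean ± SD over 4 libraries). The members had 264 ± 76.1 and 108 ± 22.00 CPM, and barcodes with at least 2 Ihh UMIs had 568 ± 129 and 309.5 ± 63.4 CPM. Matn1 followed the same order, with 78.7 ± 29.5, 1354 ± 89.8 and 2207 ± 211 CPM, and so did Matn3, with 37.3 ± 11.99, 139.9 ± 22.6 and 286 ± 23.5 CPM. The first step of the Matn1 order is set by the gate. On Epyc, C1qtnf3 and Matn3 the members lay between the Matn1-low and the Ihh-positive barcodes, and they are called here by their rule. Depth ran in the same order, and its part was not tested. Median depth was 10044, 6041.5, 12605.5 and 5725.5 UMIs in the Matn1-low barcodes of S1 to S4. It was 26915, 12109, 25976 and 21868 UMIs in the members and 62267, 48579, 49938 and 40639.5 UMIs in the Ihh-positive barcodes. The cell-cycle gene Mki67 was detected in 38.3%, 29.0%, 36.3% and 31.4% of the members of S1 to S4. In the Matn1-low barcodes it was detected in 23.8%, 21.7%, 26.7% and 13.8%, and in the Ihh-positive barcodes in 27.3%, 33.3%, 51.7% and 45.7%. The Ihh-positive share was below that of the members in S1 and above it in S2, S3 and S4. The part of depth in these shares was not tested either.

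**Figure D1:**
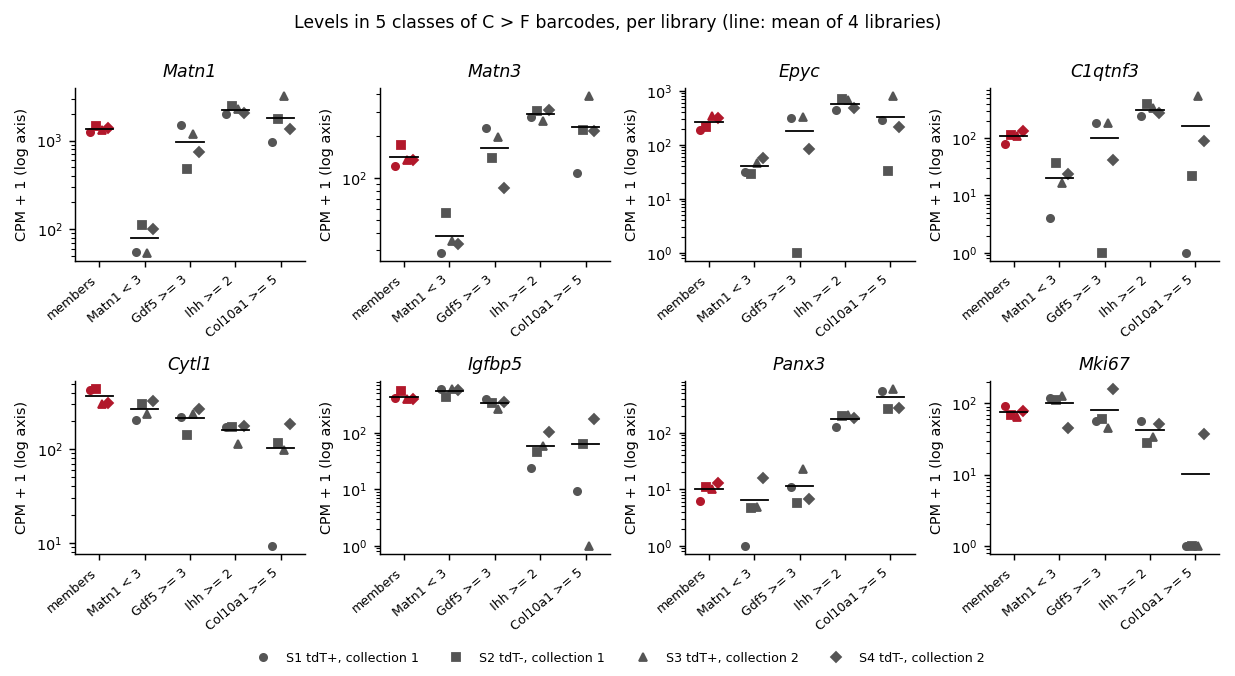
CPM + 1 on a log axis (y) in 5 classes of C > F barcodes (x), with 1 point per library, the shape giving the library and the line the mean of the 4 libraries. Matn1, Matn3, Epyc and C1qtnf3 rise from the barcodes under 3 Matn1 UMIs to the members (red) and on to the barcodes with at least 2 Ihh UMIs. The class with at least 5 Col10a1 UMIs rests on 1 barcode in S1 and 1 in S3.

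Against all other C > F barcodes, the genes highest in the members were led by Lrp1b, an endocytic receptor, at a median log2 ratio over the libraries of 2.21, and Negr1, a neuronal-type adhesion molecule, at 1.13. Erbb4, a receptor tyrosine kinase, stood at 1.11 and Hs6st2, a heparan sulfate sulfotransferase, at 1.08. Cacna1d, a voltage-gated calcium channel subunit, stood at 1.01. Gdf10, a BMP-family ligand, was at 85.6, 93.9, 83.1 and 94.8 CPM in the members of S1 to S4 and at 35.8, 47.7, 50.3 and 49.3 CPM in the others. Cytl1, a secreted protein of resting cartilage, was at 430.4, 438, 299 and 307 CPM in the members and at 192, 206, 186 and 207 CPM in the others. Gdf10 and Cytl1 belong to a list of 9 resting-zone genes, of which Hes5 and Sfrp5 were also higher in the members in 4 of 4 libraries, Ucma in 3 and Barx1 and Pthlh in 2, while Sox4 and Wif1 were lower in 4 of 4. Barx1 averaged 78.0 CPM in the members, 131 CPM in the barcodes that failed only on Matn1 and 138 CPM in those with at least 3 Gdf5 UMIs. Cadm2, Slc4a4, Foxp2, Frmd4a, Cntln, Lsamp and Ntm followed, at log2 ratios between 0.84 and 0.97. The ranking did not use the barcodes with C at or below F. Hs6st2, Foxp2, Cntln and Lsamp were higher there than in the members in 4 of 4 libraries. Lrp1b, Negr1, Slc4a4, Gdf10 and Cytl1 were lower there in 4 of 4, and Erbb4, Cacna1d, Cadm2, Frmd4a and Ntm varied by library.

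The genes lowest in the members included several known from later stages. Smpd3, a sphingomyelinase needed for mineralization, was at 5.03, 9.85, 12.8 and 15.3 CPM in the members and at 79.6, 198, 114 and 187 CPM in the others, a median log2 ratio of -3.64. Panx3, a channel of prehypertrophic cells, stood at -3.33, the ligand Bmp6 at -1.85, the matrix protein Comp at -1.81 and the protease Cpa6 at -1.80. Pth1r, the receptor for parathyroid hormone-related protein, stood at -1.55 and Cdkn1a at -1.44. Lgals3, Prkg2 and Kcnma1 completed the 10 lowest, at -1.51, -1.42 and -1.35. The ranking took genes at 50 CPM or more in every library (in the members for the highest, in the others for the lowest) with the same sign in 4 of 4 libraries, and left out the gate genes, of which Ihh stood at -3.86. The gates on Ihh and Col10a1 take part in these differences by construction.

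The members were not uniform. They were ranked by Matn1 CPM within each library and divided into tertiles, whose median depth lay between 11369 UMIs (middle tertile of S2) and 29474.5 UMIs (highest tertile of S3). In the highest tertile Col2a1, the main cartilage collagen, was at 7650.2, 7109, 7320.2 and 8483 CPM in S1 to S4, and in the lowest at 3237, 3690.0, 3931 and 3706 CPM. Epyc was at 419.6, 394, 646 and 666 CPM in the highest and at 32.3, 52.9, 60.97 and 62.6 CPM in the lowest tertile. In the highest against the lowest tertile, C1qtnf3 averaged 202 against 27.5 CPM, Matn3 238 against 71.4 CPM, Comp 182 against 52.5 CPM and Fgfr3, a receptor that restrains chondrocyte division, 136 against 52.3 CPM. All 6 genes were higher in the highest tertile in 4 of 4 libraries, with no overlap between the tertiles. So Epyc and C1qtnf3 followed Matn1 within the members. The tertiles also differed in genotype. Of the barcodes with a genotype, the Pan-Cart-p21MOE share was 51.2%, 21.2%, 80.5% and 87.6% in the lowest tertile of S1 to S4 and 30.2%, 78.8% and 74.8% in the highest tertile of S1, S3 and S4, being lower there in S2 too, and its part in these values was not tested.

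Several genes ran the other way. Mki67 was at 45.8, 35.4, 54.7 and 60.2 CPM in the highest Matn1 tertile and at 142, 104, 81.9 and 102 CPM in the lowest. Top2a, a topoisomerase of S to M phase, averaged 183 against 331 CPM. Igfbp5, an IGF-binding protein, averaged 314 against 522 CPM, the Wnt antagonist Sfrp2 63.7 against 151 CPM and the epiphyseal transcription factor Barx1 54.1 against 99.5 CPM. These 5 genes were lower in the highest tertile in 4 of 4 libraries. Other cell-cycle genes were split. The mitotic kinase gene Aurkb was lower in the highest tertile in 4 of 4 libraries (38.8 against 58.99 CPM), and Ndc80 (29.4 against 44.9 CPM), Hjurp (42.3 against 50.9 CPM) and Pimreg (15.8 against 20.5 CPM) were lower in 3 of 4. Cdc45 averaged 22.9 against 19.3 CPM and E2f1 33.7 against 26.5 CPM, both higher in the highest tertile in 4 of 4 libraries, and Gmnn averaged 60.7 against 64.00 CPM and Rrm2 74.2 against 78.6 CPM, higher in 3 and 2 of 4. Sox9, the master regulator of chondrocytes, averaged in the same order 699.6 against 729 CPM, higher in 2 of 4 libraries. Over barcodes, Spearman's rho with Matn1 per UMI was 0.46, 0.29, 0.49 and 0.53 for Epyc and -0.20, -0.23, -0.069 and -0.032 for Mki67 in S1 to S4. These are descriptions over barcodes that share a library, both values being divided by the same depth.

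**Figure D2:**
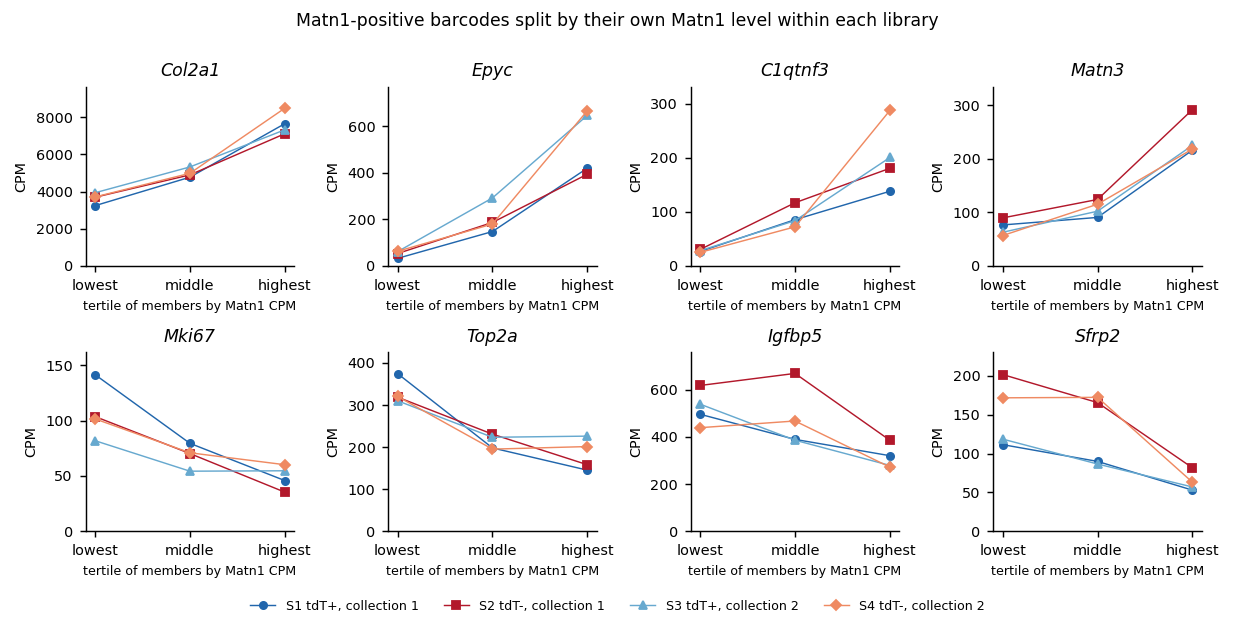
Summed CPM (y) in the lowest, middle and highest tertile of members ranked by Matn1 CPM within each library (x), with 1 line per library. Col2a1, Epyc, C1qtnf3 and Matn3 rise along the Matn1 rank in every library, and Mki67, Top2a, Igfbp5 and Sfrp2 end lower than they start.

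Whether p21 induction changed how many chondrocytes meet the rule was asked first. Of the C > F barcodes with a genotype, 71.8%, 64.4%, 66.5% and 69.7% were Matn1-positive in the Pan-Cart-p21MOE cells of S1 to S4, with 95% exact (Clopper-Pearson) intervals between 48.8% and 81.4%. In controls the shares were 78.3%, 76.7%, 65.4% and 58.8%, with intervals between 49.2% and 86.2%. The intervals cover counting error only. The means were 68.1 ± 3.27% and 69.8 ± 9.32% (SD, n = 4), a difference of -1.67 percentage points with a two-sided exact permutation p of 0.7429, where 0.0286 is the smallest p that 70 assignments allow. The groups overlapped. In S1 and S2 the Pan-Cart-p21MOE share was the lower and in S3 and S4 the higher, so the direction differed between the collections, in which genotype and sex are joined in opposite ways.

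The genotype comparison rests on 549 Pan-Cart-p21MOE members (56, 29, 183 and 281 in S1 to S4) and 324 control members (72, 132, 53 and 67), and 273 members had no genotype. Summed depth ran from 667189 UMIs (Pan-Cart-p21MOE in S2) to 7112182 UMIs (Pan-Cart-p21MOE in S4). The targeted gene checks the labels. Cdkn1a was at 23.1, 30.2, 52.3 and 44.3 CPM in Pan-Cart-p21MOE and at 24.7, 33.4, 54.6 and 35.5 CPM in controls, a log2 fold change of 0.12 ± 0.26 (SE) with an adjusted p of 0.976. Its groups overlapped. The transgene ends in WPRE, a 3′ element that the tdTomato allele carries too, and 3′ reads of either allele fall mainly there. WPRE was at 1181, 595, 1778 and 1174 CPM in Pan-Cart-p21MOE and at 615, 129, 492 and 79.1 CPM in controls. It was higher in Pan-Cart-p21MOE within every library, although the groups overlapped between libraries (595 in S2 against 615 in S1), and the log2 fold change was 2.23 ± 0.33 (edgeR quasi-likelihood test, adjusted p = 0.0390). The WPRE call held in 13 of 19 alternative settings. Reads of the induced p21 transgene outside WPRE are not separated from those of Cdkn1a here.

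Beyond Ccn2, 5 features passed the test in Matn1-positive cells. Matrilin-3 and tenascin-C transcripts fell and so did the antisense RNA Gm13944, while WPRE and the antisense RNA Gm16070 rose. In all, 6 of 11391 genes were called at an adjusted p under 0.05 (0.0527%), 2 higher (0.0176%) and 4 lower (0.0351%) in Pan-Cart-p21MOE, by the quasi-likelihood test of edgeR, in a fit that also held the sorted fraction. At an unadjusted p under 0.05 there were 818 genes (7.18%), 370 higher (3.25%) and 448 lower (3.93%), the shares against which the list counts below are to be read. In 507 genes (4.45%) the genotypes did not overlap, and the median log2 fold change over all genes was 0.0020. With the library as a block, which pairs the genotypes processed in 1 reaction, 44 genes were called (10 higher, 34 lower), with all 6 among them, and DESeq2 called 68. The 4 values per genotype come from 2 pools, so the p-values of both fits treat as independent what shares embryos. With the fractions of a pool summed (2 pools against 2), Matn3 (adjusted p = 0.00819) and Tnc (0.0470) were called, and the antisense RNAs Gm13944 (0.0717) and Gm16070 (0.0739) were not. Of the named genes that were called only with the block, leaving aside the gate gene Matn1, Igfbp5 was then called (0.0408), and Matn4, Cdkn1c, Klf2, Socs3, Adamts1 and Zfp385b were not, at adjusted p between 0.182 and 0.403.

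Matn3 (ENSMUSG00000020583, chr12:8947929-8972028, +), whose product matrilin-3 links collagen and aggrecan, was at 80.3, 66.5, 95.02 and 94.6 CPM in Pan-Cart-p21MOE members of S1 to S4. In control members it was at 176, 235, 279.6 and 239 CPM. Every Pan-Cart-p21MOE value lay below every control value. The log2 fold change was -1.43 ± 0.16 (SE, adjusted p = 0.00376), at 84.1 ± 13.6 against 232 ± 42.7 CPM (SD, n = 4), and it passed the test in each of 19 alternative settings. Matn3 fell in 4 of 4 libraries, in tdT+ and tdT- cells alike.

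Matn4 did not pass the adjusted test. Matn4 (ENSMUSG00000016995), the matrilin-4 gene, was at 1126, 1243, 1158 and 1155 CPM in Pan-Cart-p21MOE and at 1588, 1772, 1703 and 1477 CPM in controls, a log2 fold change of -0.48 ± 0.096 with an adjusted p of 0.0859, and 0.0344 with the library as a block. Its groups did not overlap. Matn1 (ENSMUSG00000040533, chr4:130944385-130955475, +) was at 931, 1089, 1287 and 1318 CPM and at 1542, 1704, 1734 and 1714 CPM, a description with no test, since at least 3 Matn1 UMIs were required of every member. Matn1 was tested over all C > F barcodes, which were not chosen by Matn1, where the log2 fold change was -0.47 ± 0.089 (adjusted p = 0.0650). Matn2, a matrilin of wider expression, was at 11.1 ± 4.82 against 13.96 ± 2.85 CPM (adjusted p = 0.965).

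Tnc (ENSMUSG00000028364, chr4:63959785-64047015, -), which encodes the matrix glycoprotein tenascin-C, was at 115, 113, 109 and 108 CPM in Pan-Cart-p21MOE. In controls it was at 206, 197, 206 and 226 CPM. The groups did not overlap, at 111 ± 3.42 against 209 ± 12.2 CPM (SD, n = 4), and the log2 fold change was -0.91 ± 0.10 (adjusted p = 0.00380). Without the Pan-Cart-p21MOE cells of S3 the adjusted p was 0.0581 at a log2 fold change of -0.90.

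The remaining calls were antisense RNAs at low level. Gm13944 (chr2:77462669-77480938, +) lies opposite Zfp385b, and it was at 6.02, 9.06, 7.12 and 8.12 CPM in Pan-Cart-p21MOE and at 19.2, 19.6, 26.4 and 20.01 CPM in controls. Its log2 fold change was -1.50 ± 0.22 (adjusted p = 0.0370), and Zfp385b stood at -1.21 ± 0.31 (adjusted p = 0.227, and 0.00312 with the library as a block). Gm16070 (chr1:17676027-17727646, -) overlaps Crispld1 (chr1:17727045-17766344, +), a secreted cysteine-rich protein gene, only at chr1:17727045-17727646. Gm16070 was at 50.2, 31.7, 40.9 and 37.2 CPM in Pan-Cart-p21MOE and at 20.7, 15.8, 19.3 and 21.4 CPM in controls, a log2 fold change of 1.06 ± 0.16 (adjusted p = 0.0428), with Crispld1 at 0.66 ± 0.15 (adjusted p = 0.127). Each antisense RNA had the sign of its partner. Gm13944 lies within Zfp385b (chr2:77410634-77819639, -), and counting is not stated to use strand, so whether their reads were kept apart is not known here. For Gm16070 and Crispld1 this applies only to the stretch they share. Zfp385b and Crispld1 were named after the values of their antisense partners were seen. Neither antisense RNA was called when any single sum of counts was left out, where the adjusted p ran up to 0.206 for Gm13944 and 0.268 for Gm16070. Ccn2, a matricellular growth factor and YAP target, was the gene with the lowest p (log2 fold change -1.42 ± 0.13, adjusted p = 0.000970). As a group, all 45 tested replication-dependent histone genes had lower estimates, with a median of -1.15 and 41 of them at an unadjusted p under 0.05. None was called by edgeR, in this fit, while DESeq2 called 17, limma voom 7 and edgeR with the library as a block 8. With the fractions of a pool summed, edgeR called 0 of 54, at a median of -1.07. EdgeR called 30 of 63 with no filter on low counts, 18 at 1 or more Matn1 UMI per 10000, 9 without the top 5% of Scrublet scores and 7 of 47 over all C > F barcodes.

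**Figure D3:**
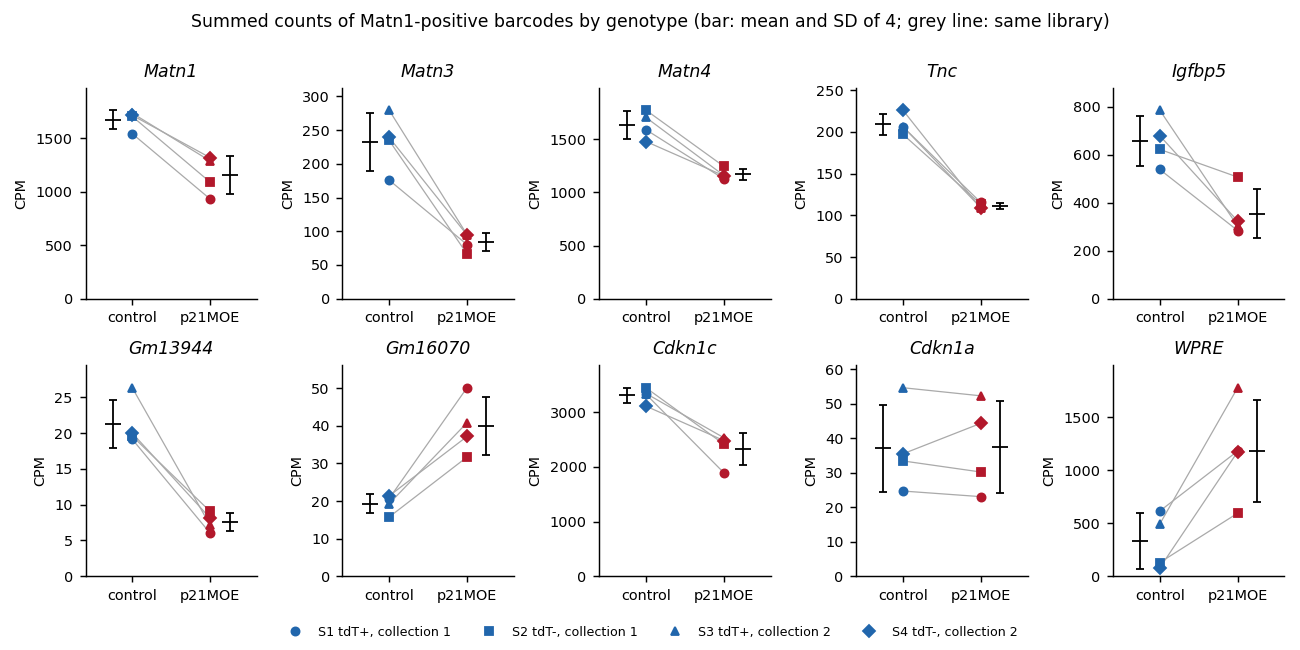
CPM (y) of summed counts from Matn1-positive barcodes in control (blue) and Pan-Cart-p21MOE (red) cells, with 1 point per library, grey lines joining the genotypes of a library and black bars for the mean and SD of 4. Matn1, Matn3, Matn4, Tnc, Igfbp5, Gm13944 and Cdkn1c are lower and Gm16070 and WPRE higher in Pan-Cart-p21MOE in 4 of 4 libraries, and Cdkn1a overlaps.

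Among 31 tested genes of the cartilage matrix list, 1 fell (Matn3), and 8 were lower and 1 higher at an unadjusted p under 0.05, with a median log2 fold change of -0.16. DESeq2 called 4 genes of the list, edgeR with the library as a block 4 and edgeR with no filter on low counts 6 of 37. With the fractions of a pool summed, edgeR called 1 of 34. Ucma, a secreted matrix protein of the upper zone, was at 2.51, 4.53, 5.06 and 4.70 CPM in Pan-Cart-p21MOE and at 12.1, 10.4, 14.8 and 8.19 CPM in controls (-1.35 ± 0.30, adjusted p = 0.125). Col2a1 was at 5503 ± 656 against 5760.3 ± 422 CPM (-0.067 ± 0.11), Acan at 614 ± 129 against 714 ± 113 CPM (-0.21 ± 0.16), and Col9a1, Col9a2 and Col9a3 had log2 fold changes of -0.16, -0.12 and -0.12. Epyc was at 235 ± 134 against 288 ± 47.3 CPM (-0.24 ± 0.31) and C1qtnf3 at 84.4 ± 33.9 against 133 ± 26.3 CPM (-0.55 ± 0.23, adjusted p = 0.618). None of these genes was called. Acan and the Col9a genes form the sum C that chose the barcodes, so their values are a description, and the gate gene Matn1 is counted among the 8 lower.

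Igfbp5, which binds insulin-like growth factors, had the lowest p of 41 tested signalling genes of the PTHrP, FGF, BMP, IGF and CNP list. It was at 284, 507, 303 and 324 CPM in Pan-Cart-p21MOE and at 539, 623, 787 and 680.4 CPM in controls, with no overlap (-0.93 ± 0.17, adjusted p = 0.0715, and 0.0241 with the library as a block). In that list no gene was called, and 5 were lower and 2 higher at an unadjusted p under 0.05. Npr2, the CNP receptor, stood at -0.55 ± 0.18, the BMP receptor Acvr1 at 0.57 ± 0.17 and the BMP antagonist Chrdl1 at 1.59 ± 0.55. Among 19 hedgehog genes none was called, and the estimates nearest to the threshold were Scube1 (0.50 ± 0.17), the signal transducer Smo (0.36 ± 0.14), the ligand-release gene Disp1 (-0.54 ± 0.22) and the co-receptor Gas1 (0.37 ± 0.16). In the Wnt list of 40 genes the antagonist Frzb had the lowest p, at 58.7 ± 12.97 against 35.97 ± 5.26 CPM (0.70 ± 0.18, adjusted p = 0.204).

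Of 24 integrins and matrix receptors none was called, and Itgav, the integrin alpha-v subunit, was at 43.1 ± 8.38 against 26.7 ± 2.59 CPM (0.68 ± 0.16, adjusted p = 0.163), with Itgb5, one of its partners, at 0.37 ± 0.15. The 24 tested matrix proteases and inhibitors were split, with 3 higher and 3 lower at an unadjusted p under 0.05 and none called. Cpa6 was at 61.6 ± 17.2 against 31.4 ± 14.4 CPM and Cpxm1 at 156 ± 24.8 against 114 ± 13.7 CPM, while Adamts1 was at 27.8 ± 7.35 against 63.1 ± 37.4 CPM (adjusted p = 0.275, 0.0333 with the library as a block, and a log2 fold change of -1.04 that was -0.58 without the control cells of S3) and Mmp16 at 95.4 ± 22.6 against 147 ± 27.5 CPM. Among 29 genes of glycosaminoglycan synthesis, Csgalnact1 (-0.48 ± 0.16) and Ugdh (-0.34 ± 0.13) had the lowest p, and none was called. Of 35 zonal transcription factors none was called, with Arid5b at 0.72 ± 0.16, Dlx3 at 1.18 ± 0.32, Foxa3 at -0.44 ± 0.15 and Glis3 at 0.48 ± 0.18. Among 9 resting-zone genes the estimates had both signs, 1 was higher and 2 were lower at an unadjusted p under 0.05, and none was called. Ucma, given above, belongs to this list and had its lowest p. Cytl1 stood at -0.59 ± 0.17, Barx1 at 0.42 ± 0.18 and Gdf10 at -0.17 ± 0.12. The 11 tested hypertrophy genes had a median of 0.29, with none at an unadjusted p under 0.05. With 1 sum left out the median ran from 0.054 (without the control cells of S1) to 0.40 (without the Pan-Cart-p21MOE cells of S2), and it was 0.15, 0.17 and 0.19 without the Pan-Cart-p21MOE cells of S3 or S4 or the control cells of S3.

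Cell-cycle lists held mostly lower estimates and no call by edgeR with the filter on low counts. DESeq2, and edgeR without that filter, each called 2 S-phase genes and 1 gene of G2 and M phase. Of 45 S-phase genes, 33 had lower estimates and 8 were lower at an unadjusted p under 0.05 (median -0.13). Gmnn, the licensing inhibitor geminin, was at 47.1 ± 7.75 against 77.96 ± 14.1 CPM (-0.76 ± 0.17, adjusted p = 0.127), and Rrm2, a ribonucleotide reductase subunit, at 59.6 ± 7.88 against 89.5 ± 12.3 CPM (-0.61 ± 0.14). E2f8 stood at -0.85 ± 0.27 and Cdc45 at -0.60 ± 0.22. Of 53 genes of G2 and M phase, 46 had lower estimates and 6 were lower at an unadjusted p under 0.05 (median -0.13), with Ndc80, a kinetochore gene, at -0.95 ± 0.23, Hjurp at -0.49 ± 0.14, Pimreg at -0.73 ± 0.25 and Aurkb at -0.53 ± 0.18. Cdkn1c, which encodes the inhibitor p57 and is the most abundant of the cyclin and inhibitor list, was at 1892, 2417, 2534 and 2482 CPM in Pan-Cart-p21MOE and at 3329.6, 3447, 3343 and 3111 CPM in controls. Its groups did not overlap (-0.51 ± 0.11, adjusted p = 0.107, and 0.0393 with the library as a block). E2f7 stood at -0.78 ± 0.26 and E2f1 at -0.35 ± 0.14. Of 29 p53 targets 1 was higher and 2 lower at an unadjusted p under 0.05, near the shares of all genes, with Tnfrsf10b at 0.73 ± 0.30, Psrc1 at -0.47 ± 0.20 and Phlda3 at -0.41 ± 0.18, and the median was -0.025. Without the Pan-Cart-p21MOE cells of S4, 32 of 53 genes of G2 and M phase had lower estimates with a median of -0.024 and 2 lower at an unadjusted p under 0.05, and the S-phase median was -0.024 with 3 such genes. Without the control cells of S3 the S-phase median was -0.22 with 13 such genes, without those of S2 it was -0.078 with 3, and without the Pan-Cart-p21MOE cells of S2 the median of G2 and M phase was -0.22 with 10.

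Genes known to respond to tissue dissociation had mostly lower estimates in Pan-Cart-p21MOE members. Of 29 tested, 24 had lower estimates and 16 were lower at an unadjusted p under 0.05, with a median of -0.42. None was called by edgeR, in this fit, while DESeq2 called 3, limma voom 2 and edgeR with the library as a block 2. With the fractions of a pool summed, edgeR called 0 of 29, at a median of -0.48. With no filter on low counts edgeR called 14 of 29, and at 1 or more Matn1 UMI per 10000 it called 2. Without the control cells of S3, 9 were lower at an unadjusted p under 0.05 with a median of -0.25, and without those of S4, 10 with a median of -0.34. Their summed level was 13040 ± 1418 CPM against 17560 ± 3219 CPM in controls, and Hspa8 was the most abundant. Klf2 was at 584, 668, 618 and 651 CPM against 768, 1064, 1119 and 1001 CPM (-0.65 ± 0.12, adjusted p = 0.0715, and 0.0241 with the library as a block). Socs3 stood at -0.56 ± 0.10 (adjusted p = 0.0753, and 0.0406 with the block), Hsph1 at -1.54 ± 0.31 and Dnajb1 at -1.27 ± 0.27. These lower values stand beside those of Matn3 and Tnc in the same contrast, and their part in those results was not tested. In the unfolded protein response list of 26 genes, Ppp1r15a stood at 0.38 ± 0.11 and Atf3 at -0.97 ± 0.35, which was -0.41 without the control cells of S3. In the oxygen-response and glycolysis list of 37 genes, Egln1 stood at -0.39 ± 0.12 and Epas1 at 0.65 ± 0.27, and in the collagen secretion list of 32 genes, Bmp1 at 0.44 ± 0.14 and Sec24d at -0.40 ± 0.16, all uncalled. A single sum also moved other uncalled estimates by over 1.5 times. Without the control cells of S4, Gas1 stood at 0.22, Csgalnact1 at -0.31 and Barx1 at 0.27, and without those of S3, Sec24d at -0.23. Without the Pan-Cart-p21MOE cells of S4, Psrc1 stood at -0.27, Epas1 at 0.41 and Disp1 at -0.82, and without those of S2, C1qtnf3 at -0.37. Of 21 YAP and TEAD targets, 1 was called (Ccn2), and Ajuba stood at -0.89 ± 0.30.

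No marker of another cell type was called by edgeR. Muscle markers summed to 6.35 ± 5.29 CPM in Pan-Cart-p21MOE and 20.5 ± 17.3 CPM in controls, with Myf6 and Myh3 at 0 and no marker abundant enough to test. Red blood cell markers summed to 32.6 ± 10.3 against 41.1 ± 18.1 CPM, with Hbb-bh1 at 0. Surface ectoderm markers summed to 20.3 ± 2.79 against 24.9 ± 3.27 CPM, with Krt14 and Krtdap at 0. Immune markers summed to 45.1 ± 58.5 against 74.1 ± 117 CPM, endothelial markers to 162 ± 44.3 against 130.1 ± 47.2 CPM, led by Pecam1, and nerve markers to 62.2 ± 9.42 against 69.3 ± 5.94 CPM. Connective tissue markers, led by Col1a1, summed to 1928 ± 312 against 2003 ± 394 CPM. Col1a1, Col1a2 and Col3a1 of this list form the sum F, which the rule limits in every barcode, so this level is in part set by the rule. Osteoblast-lineage markers, led by Runx2, which chondrocytes also express, summed to 120.4 ± 64.6 against 85.1 ± 35.1 CPM, and all 4 tested had higher estimates (median 0.70, none at an unadjusted p under 0.05). Tendon-list genes, led by Egr1, which is also a stress-response gene, summed to 1583 ± 253 against 2043 ± 504 CPM.

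**Figure D4:**
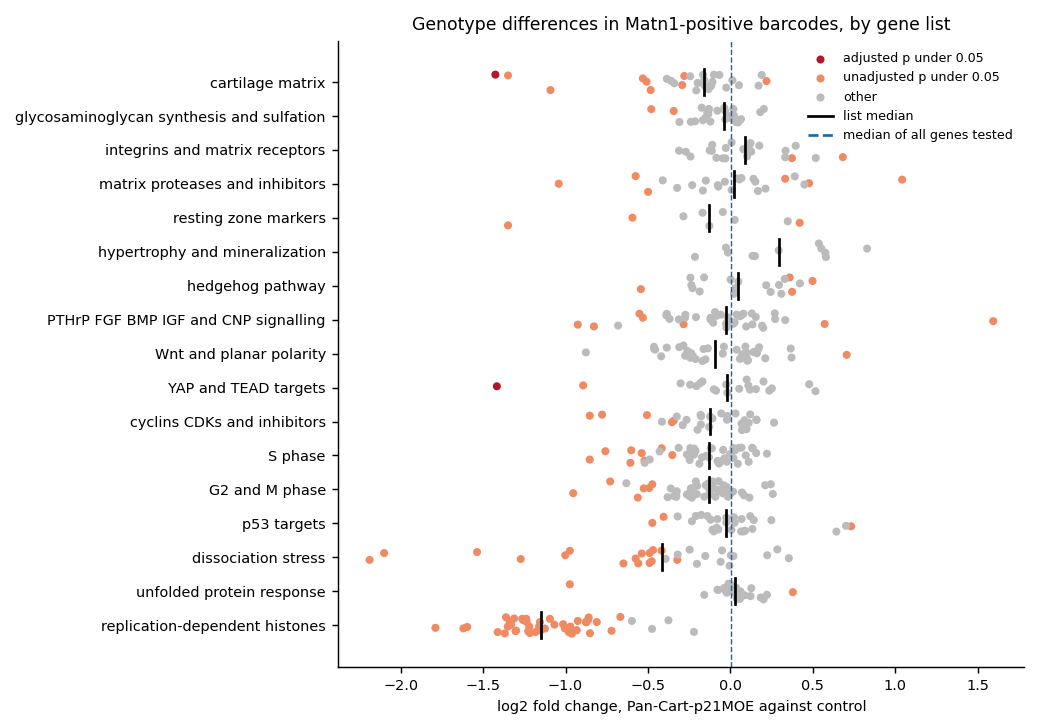
Log2 fold change of Pan-Cart-p21MOE against control in Matn1-positive barcodes (x), 1 point per tested gene, in 17 gene lists (y), with black bars at list medians and a dashed line at the median of all genes tested. The histones have a median of -1.15 and the dissociation genes of -0.42, and most other medians lie within 0.2 of 0, apart from the hypertrophy list at 0.29.

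The same genotype contrast was run in the other C > F barcodes, where 0 of 8755 genes were called by edgeR (0%), with 448 genes at an unadjusted p under 0.05 (5.12%) and 255 (2.91%) without overlap. There Matn3 stood at -0.88 ± 0.23, Tnc at -0.72 ± 0.26, Matn4 at -0.44 ± 0.13, Gm13944 at -0.41 ± 0.35 and Gm16070 at 0.051 ± 0.31. In all C > F barcodes together 36 of 12395 genes were called (0.29%), 11 higher (0.0887%) and 25 lower (0.202%), and the called genes included Matn3 (-1.24), Tnc (-0.90), Gm16070 (0.77), Igfbp5 (-0.89, adjusted p = 0.0154) and Matn4 (-0.52, adjusted p = 0.0496). There, 1138 genes (9.18%) had an unadjusted p under 0.05 and 688 (5.55%) did not overlap. Whether the genotype effect differed between Matn1-positive and other barcodes was tested as an interaction within each library and genotype. No gene of 11911 was called by edgeR (0%), and 314 had an unadjusted p under 0.05 (2.64%). The differences in log2 fold change, members minus others, were -0.60 ± 0.31 for Matn3, -0.21 ± 0.29 for Tnc, -0.98 ± 0.39 for Gm13944 and 0.96 ± 0.40 for Gm16070, each with an adjusted p of 1.000. The calls in the members are thus not shown to be particular to them.

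The G2 and M phase list had the following counts in the interaction. Of 53 genes, 48 had a lower log2 fold change in the members than in the others, and 19 did so at an unadjusted p under 0.05, against 176 of 11911 genes in that direction (1.48%). The median difference was -0.47, where the median of all genes was -0.0053. Among the 50 genes tested in both classes the median log2 fold change was -0.13 in the members and 0.19 in the others, and 32 genes were below 0 in the members and above 0 in the others. Without the Pan-Cart-p21MOE cells of S3, 10 genes were lower at an unadjusted p under 0.05 and the median difference was -0.26, and without the control cells of S2 they were 10 and -0.34. Without the control cells of S1 they were 25 and -0.63. The other barcodes are a mixture that differed by genotype, and its part in these counts was not tested. In S4, 70.2% of other control barcodes had at least 3 Matn1 UMIs, against 45.9% in Pan-Cart-p21MOE. In S1, S2 and S3 the control share was the lower, at 25.0%, 40.0% and 21.4% against 36.4%, 43.75% and 25.0%. The sums of the other barcodes held 22, 16, 92 and 122 Pan-Cart-p21MOE barcodes and 20, 40, 28 and 47 control barcodes in S1 to S4. Cenpa, a centromeric histone variant, and Ube2c, a mitotic ubiquitin-conjugating enzyme, had the lowest p of the list. Genes of this list tend to vary together, so the count does not stand for that many separate findings, and no gene passed the adjusted test with the filter on low counts. Without that filter 2 did, Cenpa and Ube2c. For the S-phase list the medians were -0.11 in the members and -0.15 in the others over 39 genes.

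**Figure D5:**
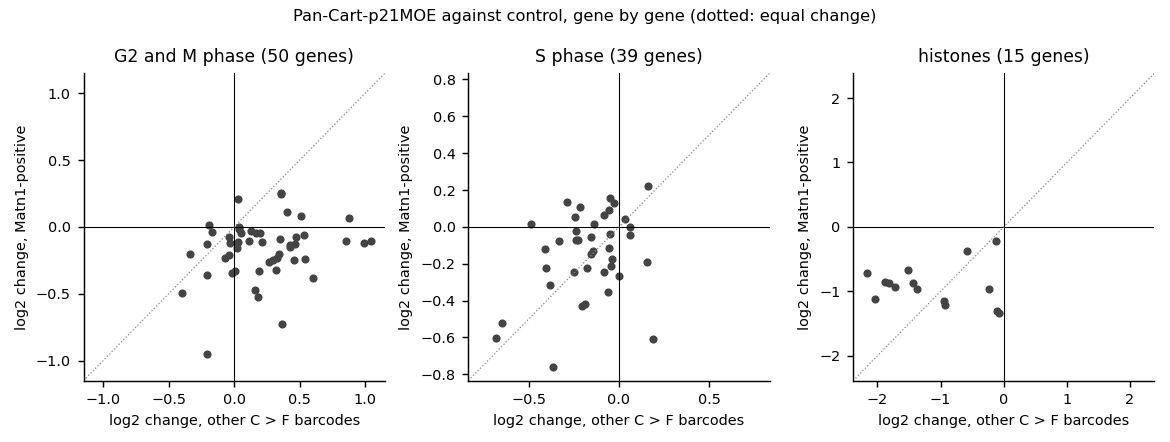
Log2 fold change of Pan-Cart-p21MOE against control in Matn1-positive barcodes (y) against that in the other C > F barcodes (x), 1 point per gene tested in both, for the G2 and M phase, S phase and histone lists. For G2 and M phase 45 of 50 points lie below the dotted line of equal change, for S phase 14 of 39 and for histones 6 of 15.

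Between the sorted fractions, Matn1-positive cells of the Gli1 lineage and the rest were compared next. Only the transgene tdt was called, 1 of 11391 genes (0.00878%) by edgeR with genotype as a covariate, and 309 genes had an unadjusted p under 0.05 (2.71%), with 231 genes (2.03%) not overlapping between the fractions. Transcripts of tdt were at 19.1 and 19.3 CPM in the tdT+ cells of Pan-Cart-p21MOE (S1, S3) and at 17.1 and 18.6 CPM in those of controls. In tdT- cells (S2, S4) they were at 4.53 and 0.57 CPM and at 1.92 and 2.73 CPM, with no overlap between the fractions (log2 fold change 3.52 ± 0.41, adjusted p = 0.0132). The fractions were sorted by tdTomato, so a higher level of tdt in tdT+ cells follows from the sort. With the embryo pool as a block, which pairs the fractions of the same embryos, no gene was called. Gt(ROSA)26Sor, the locus that carries the reporter and named after its values were seen, was at 69.6 ± 9.71 CPM in tdT+ and 126 ± 11.3 CPM in tdT- cells (-0.84 ± 0.13, adjusted p = 0.150). WPRE stood at 1.53 ± 0.33 (adjusted p = 1.000). Col1a1 and Col1a2, which the C > F rule uses, stood at 0.52 ± 0.13 and 0.41 ± 0.12, the joint-side genes Sfrp2 and Osr2 at -0.57 ± 0.16 and -0.76 ± 0.25, and the integrin subunit Itga8 at -1.10 ± 0.29, each with an adjusted p of 1.000. Matn3 and Tnc had log2 fold changes between the fractions of -0.0029 ± 0.16 and -0.0072 ± 0.10.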

How the data were processed

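Single-cell 3′ libraries were sequenced and aligned by the authors with Cell Ranger 7.2.0 to GRCm38 with transgenes added, and the deposited matrices hold UMI counts per gene and barcode, not normalized. Whether counting used strand is not given in the sources used here. The members and gene lists were chosen with earlier results of these data known. Barcodes with at least 3000 UMIs and at most 10% mitochondrial UMIs were kept. Barcodes with at least 2 sex-gene UMIs, at least 80% of them from 1 side, were given the genotype that the study's methods pair with that sex in the library, since the labels name both genotypes for each library. Doublets were not removed in the main analysis.

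Counts were summed per library and genotype (sex genes left out) and tested with edgeR 4.0.16 in R 4.3.3 (quasi-likelihood test, TMM scaling, filterByExpr, Benjamini-Hochberg adjustment), with DESeq2 1.42.0 and limma 3.58.1 (voom) as alternatives. Scripts were tested on simulated data. Genes were named by rank within comparisons and lists: the called genes, else the 4 with the lowest p, and for identity the 15 highest and 10 lowest ratios. Some items that this rule takes in are not reported here. Genotypes of a library were processed together, and fractions of a pool come from the same embryos. Deviations from group means correlated at 0.0198, 0.0876, -0.0128 and 0.0349 between genotypes of a library and at 0.178, 0.121, 0.00758 and 0.292 between fractions of a pool over 11391 genes. P-values measure the spread between these sums.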

Additional observations from a re-analysis of the deposited data

Results flagged for a closer look

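In 6 of 144 groups of 4 values, a sample lay far from the other 3, against about 1 in 20 by chance. Control cells of S3 had Gm13944 at 26.4 CPM (next value 20.0), and control cells of S1 had Matn1 at 1542 CPM (next 1704). Pan-Cart-p21MOE cells of S1 had Col9a2 at 1223 CPM (next 1471). Control cells of S4 had Ndc80 at 87.3 CPM (next 44.9), and control cells of S3 had Adamts1 at 119 CPM (next 50.5). Pan-Cart-p21MOE cells of S2 had Smo at 118 CPM (next 83.6).

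Between the collections, 3 values moved in opposite directions in all libraries, and the difference was not tested. The rule was applied to every gene named in the genotype comparison and to the share of Matn1-positive barcodes. Among so many items some meet it by chance. Matn2 had a log2 ratio of Pan-Cart-p21MOE to control (CPM + 1) of -0.96 in collection 1 and 0.15 in collection 2. Epyc had -1.10 and 0.11. The share of C > F barcodes that were Matn1-positive differed by -9.38 and 6.03 percentage points. Genotype and sex are joined in opposite ways in the collections, so collection and sex cannot be told apart here.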

How the results depend on the processing

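Genes called between genotypes in Matn1-positive cells numbered 6. They numbered 331 without a filter on low counts, 68 with DESeq2, 23 with limma voom, 44 with the library as a replicate block, 10 with the fractions of a pool summed, 30 without the top 5% of Scrublet scores, 10 at 5 or more Matn1 UMIs and 42 at 1 or more Matn1 UMI per 10000. Leaving out 1 sum gave 2 (without the Pan-Cart-p21MOE cells of S3) to 9, and 3 without the control cells of S2 or S4. The causes were not tested. Between fractions 1 gene was called, against 186 without the filter, 2 with DESeq2, 0 with the embryo pool as a replicate block and 0 to 2 with 1 sum left out. Without the filter, 178 genes were called in other C > F barcodes (0 with it), 459 in all C > F barcodes (36 with it) and 43 in the interaction (0 with it). The difference in share ran from -5.35 to 1.15 percentage points, and turned positive without control replicate 1 (1.15) or 2 (0.640). With 1 sum left out, log2 fold changes of Cdkn1a ran from -0.14 to 0.39 (-0.068 without the control cells of S1, -0.14 and -0.044 without the Pan-Cart-p21MOE cells of S3 and S4), of Col2a1 from -0.12 to 0.0023 and of Epyc from -0.59 to 0.0025. In the same way Acan ran from -0.33 to -0.095 and Col9a2 from -0.19 to -0.018. Without the control cells of S3, Col9a1 stood at -0.074 and Col9a3 at -0.051. The genotype estimate of tdt ran from -0.31 to 0.20, and was 0.24 with no fraction term and 0.33 with fractions summed.

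Among the named genes other than the gate gene Matn1, the library block changed the call of Matn4, Igfbp5, Cdkn1c, Klf2, Socs3, Adamts1 and Zfp385b, and of no other. Depth limits low genes: the sum for Pan-Cart-p21MOE cells of S2 held 29 barcodes.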
